A study of Mus musculus with 17 samples.

Results

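The acetylcholine receptors of the mouse hippocampus and acetylcholinesterase, the enzyme that ends their signal, were followed from youth to the end of life. The set was taken by name and holds 10 genes, the 5 muscarinic receptors Chrm1 to Chrm5, the nicotinic subunits Chrna4, Chrna5, Chrna7 and Chrnb2, and Ache. Each symbol was matched to 1 Ensembl identifier, so the set is 10 of 38355 identifiers counted. RNA with polyA tails was sequenced from the hippocampus of untreated wild type C57BL/6J mice, with no transgene or deletion in any group. Mice of 3 months (3M, 5 libraries) and 24 months (24M, 6 libraries) were compared in single-end libraries, and mice of 3 months (3 libraries) and 29 months (29M, 3 libraries) in paired-end libraries. The 29M animals were bought at 24 months and aged further in the study's own rooms. Libraries held 9213474 to 28438296 counts on genes, and their number limits what can be seen for the rarest of the 10, Chrm5, with 23 to 128 counts per library. Expression is given in CPM, which are counts scaled to a common library total, with TMM factors that correct for differences in library composition.

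24M replicates 1 and 4 differed by less than the sampling noise, with a ratio of squared difference to counting variance of 0.406 where the next lowest pair of libraries gave 1.23. They were counted as 1 sample, written 1+4, which leaves 16 samples. 3M single-end replicate 4 stood apart. Its summed striatum markers reached 835.6 CPM where the other 15 samples lay between 310.2 and 371.7 CPM, and 12 of 12 of these markers were highest there. Its neocortex markers were also the highest, with a sum of 386.8 CPM and 8 of 10 highest in this library. Of the hippocampal markers, 8 of 8 had a mean of at least 1 CPM, and their sum lay between 915.9 and 1278.0 CPM. The striatum (12 of 12), neocortex (10 of 10) and thalamus (6 of 6) markers met the same mark, so it does not single out hippocampal tissue. Nothing in the labels ties each library to a separate animal, so p-values measure the spread between these libraries, which may be partly technical.

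Acetylcholine reaches the hippocampus mainly through axons of neurons in the medial septum and diagonal band, whose cell bodies lie outside the dissected tissue. Muscarinic receptors are single proteins that act through G proteins. Chrm1, Chrm3 and Chrm5 couple to Gq, which activates phospholipase C, and Chrm2 and Chrm4 couple to Gi, which opens GIRK potassium channels and restrains adenylyl cyclase. Nicotinic receptors are pentameric ion channels: alpha4 and beta2 subunits form the main high-affinity receptor of the brain, alpha5 joins it as an accessory subunit, and alpha7 forms channels largely on its own that pass calcium. Loss of cholinergic input is a long-known feature of aging and of Alzheimer's disease, and inhibitors of acetylcholinesterase are used against its symptoms.

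Levels between genes were compared only per kilobase of annotated exon (RPKM, here TMM-scaled CPM divided by exon length). Chrm1 was the most abundant of the 10 in every group, at 45.4 ± 4.18 RPKM in 3M single-end samples (SD, n = 5), 43.0 ± 1.87 at 24M (n = 5), 40.8 ± 1.29 in 3M paired-end samples (n = 3) and 39.8 ± 0.966 at 29M (n = 3). Its lowest sample lay above the highest sample of any other member in each group. Chrm4, Ache and Chrnb2 came next in that order. In the 3M single-end samples they stood at 17.5 ± 3.43, 11.7 ± 0.913 and 9.95 ± 0.768 RPKM. The ranges of Chrm4 and Ache overlapped at 24M but not in the other groups, and those of Ache and Chrnb2 overlapped only in the 3M single-end group. The annotated length of Chrm4 (1440 bases) and of Chrm5 (1599 bases) is coding length only, so their places in the order rest on a shorter model than those of the other 8 genes. Of the 8380 exon bases of Chrnb2, 1365 are shared with Adar on the other strand. If reads there were lost in counting, its RPKM is too low, so the order of Ache and Chrnb2 is not settled.

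Chrna7, Chrna4 and Chrm3 formed a middle tier between 5.11 and 7.38 RPKM in the group means. Chrna7 and Chrna4 overlapped in both single-end groups and at 29M. Chrm3 had the lowest mean of these 3 in every group, and its range overlapped that of the next gene up in both single-end groups. Chrm2, Chrna5 and Chrm5 closed the order at 1.55 to 2.71 RPKM, with overlapping ranges between neighbours and no fixed order among them. Within the muscarinic family Chrm1 made up 62.1% ± 4.04 of the summed RPKM in 3M single-end samples and 65.1% ± 1.52 at 24M. Of the 4 nicotinic subunits, Chrnb2 held the largest mean share in every group, between 36.8% and 38.4%.

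**Figure D1:**
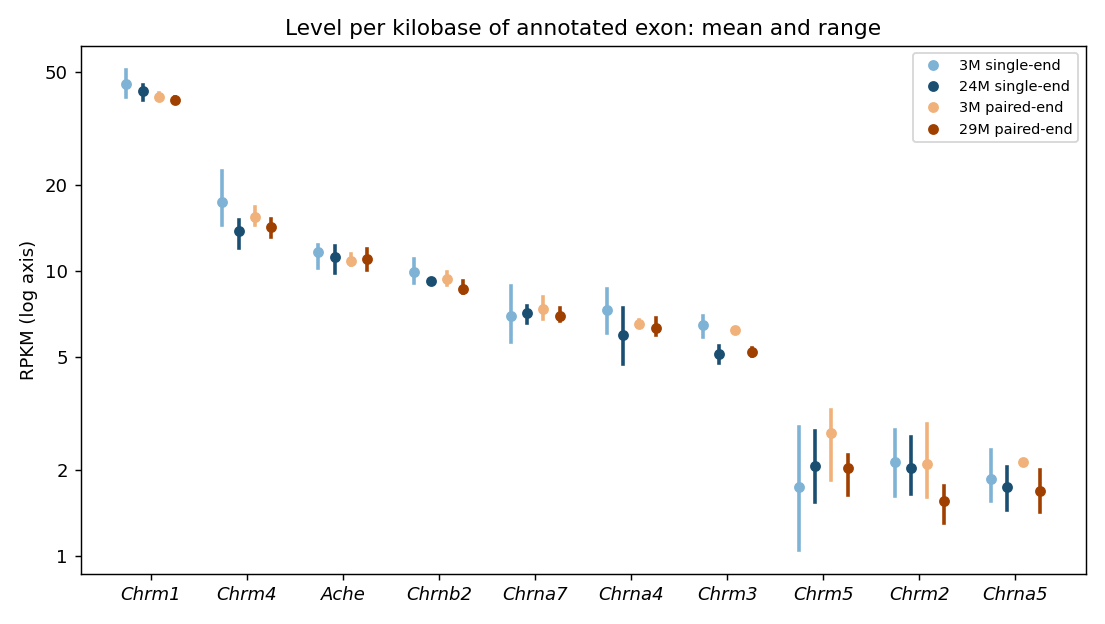
Level of each of the 10 genes per kilobase of annotated exon (RPKM, log axis) in the 4 groups. Points are group means and bars run from the lowest to the highest sample (n = 5, 5, 3 and 3). Chrm1 stands alone at the top near 40 to 45 RPKM, and Chrm5, Chrm2 and Chrna5 lie together at the bottom.

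None of the cholinergic receptors passed both thresholds with age, and Chrm3 alone passed the one on p. Calls needed a Benjamini-Hochberg adjusted p no higher than 0.05 in edgeR's quasi-likelihood test, adjusted over all genes tested, together with a log2 fold change of 0.5 or more in either direction. All 10 members were tested at both ages, and 0 of 10 were called at 24M, where 1.98% of 15683 genes were called, and 0 of 10 at 29M, where 1.45% of 15097 genes were. At an unadjusted p under 0.05, 3 members were lower at 24M (Chrm3, Chrm4 and Chrna4), beside 12.1% of all genes, and 3 at 29M (Chrm2, Chrm3 and Chrna5), beside 7.48%. The adjusted p alone was at most 0.05 for 1 member at each age, Chrm3, beside 5.58% of genes at 24M and 2.99% at 29M. The log2 fold change was below 0 for 8 of 10 members at 24M (median -0.09) and for 9 of 10 at 29M (median -0.11), where 50.8% and 50.6% of all genes tested lay below 0 and the medians over all genes were -0.0032 and -0.0021. The 2 comparisons share no 3M library.

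**Figure D2:**
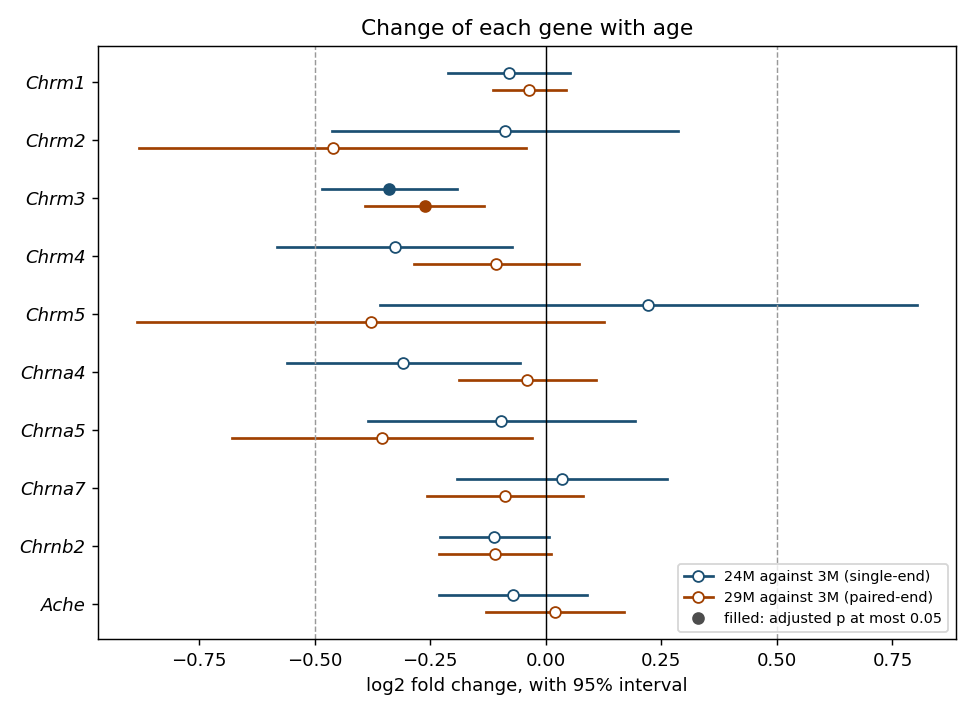
Change of each gene with age as a log2 fold change, with its 95% interval, at 24M against 3M in single-end libraries (blue) and at 29M against 3M in paired-end libraries (orange). Filled points have an adjusted p of at most 0.05 and dashed lines mark the fold change threshold of 0.5 in either direction; Chrm3 is the only filled gene, at -0.34 and -0.26, and no filled point passes a dashed line.

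Chrm3 (ENSMUSG00000046159, chromosome 13, 9875486 to 10360847, minus strand, GRCm38), a Gq-coupled receptor, was the member with the clearest difference. In 3M single-end samples it was measured at 43.6, 36.6, 41.7, 42.7 and 37.7 CPM, and at 24M at 34.2, 30.2, 34.2, 31.4 and 29.7 CPM. In the paired-end libraries it stood at 39.4, 38.7 and 38.9 CPM at 3M and at 31.5, 33.5 and 32.7 CPM at 29M. Every aged sample lay below every 3M sample of its library type at both ages, which was so for 3.42% of all genes at 24M and 10.5% at 29M. The log2 fold change was -0.34 at 24M (SE 0.068, 95% interval -0.48 to -0.19, edgeR adjusted p = 0.017), a difference of -20.9%. At 29M it was -0.26 (SE 0.060, interval -0.39 to -0.13, edgeR adjusted p = 0.032), a difference of -16.6%. The share of Chrm3 in the summed muscarinic RPKM was 8.85% ± 0.495 at 3M and 7.73% ± 0.451 at 24M, and 9.27% ± 0.238 and 8.28% ± 0.369 in the paired-end pair of groups.

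Neither fold change reached the threshold of 0.5. The direction held in all 35 alternative fits at both ages, but without 24M replicate 2 the edgeR adjusted p at 24M was 0.057 (log2 fold change -0.32), and at 29M it lay between 0.051 and 0.12 in the 6 fits that each left out 1 library, was 0.16 under DESeq2 and was 0.19 with all 4 groups in 1 fit. 24M replicate 2, which had the second lowest Chrm3 of its group, also had the highest summed blood markers, 434.0 CPM over 3 of 3 markers at 1 CPM or more, where the other 15 samples lay between 42.8 and 134.0 CPM. In bulk tissue, fewer cells of a type and less RNA per cell cannot be told apart. The summed neocortex markers, 10 of 10 of them at 1 CPM or more, were lower at 24M as well, at 192.5 to 231.3 CPM against 252.5 to 386.8 CPM at 3M, and overlapped in the paired-end groups at 201.1 to 231.1 CPM against 213.5 to 239.2 CPM. The summed microglia markers, 6 of 6 at 1 CPM or more, were higher in every aged sample, at 379.1 to 403.0 CPM against 305.2 to 349.0 CPM, and at 379.6 to 392.8 CPM against 296.0 to 306.5 CPM at 29M. At 29M 4 further lists did not overlap between the groups of 3 samples. Among single genes, all 29M samples lay below all 3M samples for 10.5%. The GABA interneuron markers (7 of 7 at 1 CPM or more) summed to 907.2 to 956.5 CPM against 963.1 to 1005.0 CPM at 3M. Of these, Gad2, Vip and Reln were lower in every 29M sample, Npy was higher in every 29M sample, and Gad1, Pvalb and Sst overlapped. The hippocampus markers (8 of 8) summed to 1092.0 to 1105.0 CPM against 1108.0 to 1138.0 CPM. Wfs1, at 129.7 to 143.5 CPM against 152.6 to 176.8 CPM, was the only marker of this list whose groups did not overlap. The cholinergic neuron markers (1 of 5) summed to 0.727 to 1.05 CPM against 1.19 to 5.37 CPM. The astrocyte markers (6 of 6 at 1 CPM or more) had a higher sum at 29M, at 5309 to 5334 CPM against 4885 to 4950.0 CPM. In that list Gfap stood at 793.4 to 834.3 CPM against 442.0 to 480.5 CPM, and Slc1a2 was higher by 0.03 on the log2 scale without overlap. The groups overlapped for Aqp4, Aldh1l1, Gja1 and Slc1a3. These 4 lists overlapped between 24M and 3M. The part of all these lists in the difference of Chrm3 was not tested.

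The promoters of Chrm3 and Chrm4 are shown because Chrm3 carries the difference above and Chrm4 had a fold change of like size at 24M that rested more on single samples. The Chrm3 stretch runs up to the first exon of the gene in the GENCODE annotation. That of Chrm4 runs up to the RefSeq start site, upstream of the coding exon at 91927249 to 91928688, the only exon of Chrm4 in GENCODE M21. Both are read 5′ to 3′ on the strand of the gene and come from RefSeq on GRCm38.p6, at chr13:10360848-10361053 (minus strand) and chr2:91921939-91922188 (plus strand). Capitals mark the GC box, GGGCGG on either strand.
Chrm3: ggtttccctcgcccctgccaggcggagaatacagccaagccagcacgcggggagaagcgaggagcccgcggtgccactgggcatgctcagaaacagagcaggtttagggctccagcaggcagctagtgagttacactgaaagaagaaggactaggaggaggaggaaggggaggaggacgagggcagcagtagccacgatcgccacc
Chrm4: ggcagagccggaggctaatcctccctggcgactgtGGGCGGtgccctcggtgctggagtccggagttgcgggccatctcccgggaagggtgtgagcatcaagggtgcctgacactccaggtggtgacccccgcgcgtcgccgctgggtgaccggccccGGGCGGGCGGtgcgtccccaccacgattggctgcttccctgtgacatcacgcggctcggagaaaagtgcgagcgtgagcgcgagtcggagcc

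The stretch of Chrm3 holds no GC box and that of Chrm4 holds 3 matches, of which 2 overlap. Over the whole RefSeq windows, 9 of 10 members had an entry, and 6 of these 9 held a GC box in a window, beside 32.7% of 32851 windows. The EGR motif GCGTGGGCG was in the windows of 0 of 9 members (0.536% of all windows) and the CRE TGACGTCA in 0 of 9 (1.55%). The E-box CACGTG was in the windows of 2, Chrna7 and Ache (6.02%). Both strands were searched. These are matches of letters, and nothing in the counts bears on binding there.

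**Figure D3:**
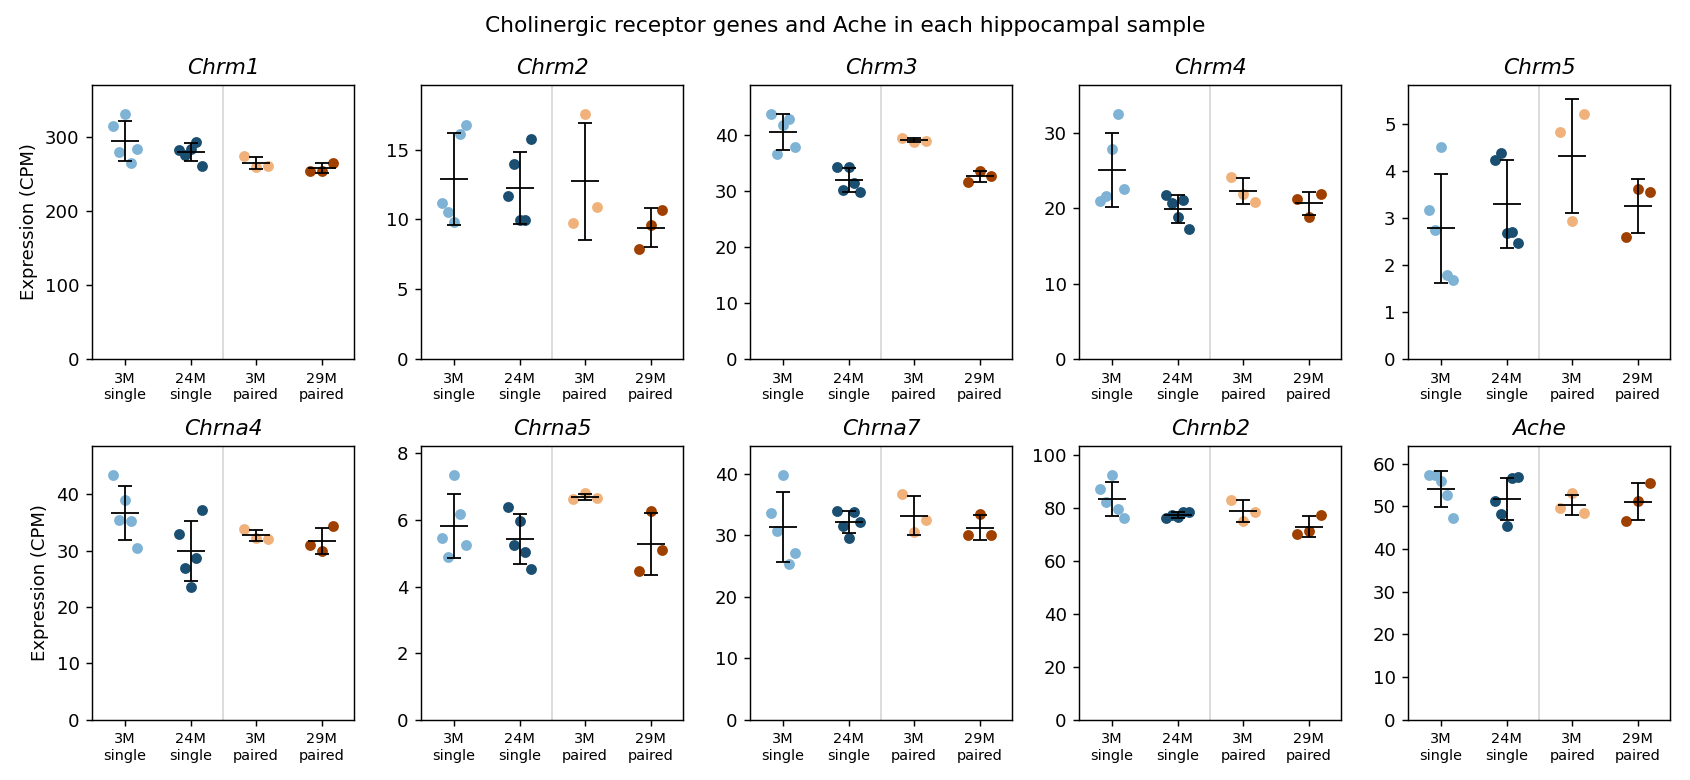
Expression of each gene (CPM, axis from 0) in every sample of the 4 groups. Points are samples, horizontal lines with bars are mean ± SD, and the grey line parts single-end from paired-end libraries. All aged samples lie below all 3M samples for Chrm3 at both ages and for Chrna5 at 29M, and the groups overlap in every other panel.

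Of the other Gq-coupled receptors, Chrm1 (ENSMUSG00000032773, chromosome 19, 8663789 to 8683587, plus strand), the main muscarinic receptor of pyramidal cells, did not differ beyond the spread of its samples. It ranged from 264.9 to 330.4 CPM in 3M single-end samples and from 260.1 to 292.9 CPM at 24M. In the paired-end groups it ranged from 259.2 to 274.3 CPM and from 254.4 to 265.3 CPM. The groups overlapped at both ages, and the log2 fold change was -0.08 (95% interval -0.21 to 0.05, edgeR adjusted p = 0.43) at 24M and -0.04 (interval -0.12 to 0.04, edgeR adjusted p = 0.67) at 29M. Chrm5 (ENSMUSG00000074939, chromosome 2, 112479171 to 112480769, minus strand), known from midbrain dopamine neurons, was the rarest member in CPM, at 1.68 to 4.52 CPM in 3M single-end samples and 2.47 to 4.40 CPM at 24M. The paired-end samples held 2.94 to 5.22 CPM at 3M and 2.61 to 3.61 CPM at 29M. Its log2 fold changes of 0.22 (SE 0.27, edgeR adjusted p = 0.64) and -0.38 (SE 0.23, edgeR adjusted p = 0.44) had opposite signs, and at this depth neither could be told from 0. In the fits without 1 library the value ran from 0.08 (without 3M single-end replicate 5) to 0.48 (without 3M single-end replicate 3) at 24M, and from -0.62 (without 3M paired-end replicate 2) to -0.23 (without 3M paired-end replicate 3) at 29M.

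Neither Gi-coupled receptor passed the test at either age. Chrm4 (ENSMUSG00000040495, chromosome 2, 91927249 to 91928688, plus strand), best known from striatal projection neurons and cholinergic terminals, was measured at 20.96, 21.7, 27.9, 32.5 and 22.6 CPM in 3M single-end samples. At 24M it was measured at 21.8, 20.8, 18.9, 21.2 and 17.3 CPM. The highest value was that of 3M single-end replicate 4, the library with the high striatum markers, and replicate 3 was high as well with a striatum sum of 310.2 CPM, the lowest of all samples. Chrm4 had a log2 fold change of -0.33 (SE 0.12, edgeR adjusted p = 0.10), and -0.22 (edgeR adjusted p = 0.20) without 3M single-end replicate 4. With all 4 groups in 1 fit the edgeR adjusted p was 0.048. In paired-end samples Chrm4 stood at 24.2, 21.9 and 20.9 CPM at 3M and at 21.2, 18.9 and 21.9 CPM at 29M. These groups overlapped, and the log2 fold change was -0.11 (SE 0.083, edgeR adjusted p = 0.55). The part of the striatum markers in the level of Chrm4 was not tested beyond the fit without that library.

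Chrm2 (ENSMUSG00000045613, chromosome 6, 36388084 to 36528414, plus strand), an autoreceptor on cholinergic terminals that interneurons also carry, varied widely within the 3M groups. It was measured at 11.2, 10.5, 9.85, 16.2 and 16.8 CPM in 3M single-end samples and at 11.7, 14.0, 9.95, 9.95 and 15.8 CPM at 24M. In paired-end samples it was measured at 9.76, 17.5 and 10.9 CPM at 3M and at 7.91, 9.61 and 10.7 CPM at 29M. The groups overlapped at both ages, and high values occurred at 3M and at 24M. At 24M the log2 fold change was -0.09 (SE 0.17, edgeR adjusted p = 0.79) and turned to 0.00 and 0.02 without 3M single-end replicate 4 or 5. At 29M it was -0.46 (SE 0.19, edgeR adjusted p = 0.24), the member value farthest from 0, but -0.13 (edgeR adjusted p = 0.72) without 3M paired-end replicate 2, and without the filter on low counts the edgeR adjusted p was 0.0021.

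The 4 samples with the highest Chrm2 (3M single-end replicates 4 and 5, 24M replicate 6 and 3M paired-end replicate 2) had summed thalamus markers of 95.9, 105.6, 129.0 and 99.6 CPM. 3M single-end replicate 2 had 100.2 CPM with a low Chrm2, and the other 11 samples lay between 58.1 and 88.8 CPM. All 6 thalamus markers had a mean of at least 1 CPM. The summed markers of cholinergic neurons were highest in 3 of these 4 samples, at 6.37, 5.78 and 5.37 CPM, while 24M replicate 6 had 1.83 CPM and the remaining samples 0.459 to 1.91 CPM. Of the 5 cholinergic neuron markers counted, 1 reached a mean of 1 CPM. The part of neighbouring regions in Chrm2 was not tested.

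**Figure D4:**
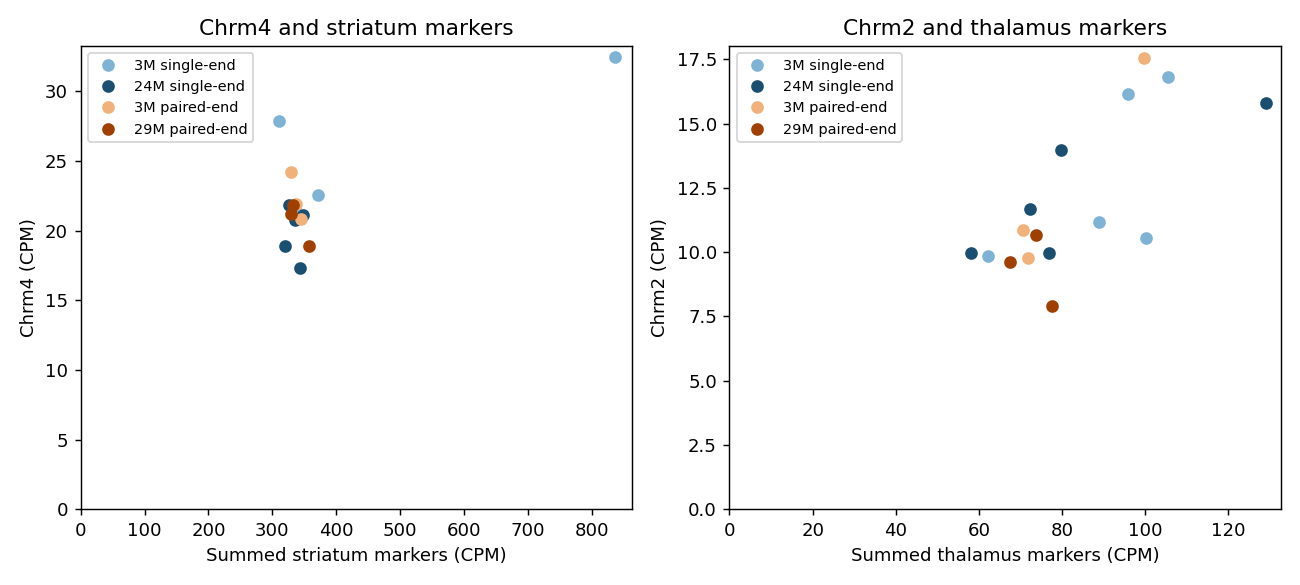
Left, Chrm4 against the summed striatum markers, and right, Chrm2 against the summed thalamus markers, in CPM with axes from 0. Each point is 1 of the 16 samples, coloured by group. The sample at 835.6 CPM of striatum markers has the highest Chrm4, 32.5 CPM. The 4 samples with the highest Chrm2 all lie above 95 CPM of thalamus markers, of which only Prkcd was higher in all 4 than in every other sample.

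Among the nicotinic subunits, neither of the pair that forms the high-affinity receptor passed the test at either age. Chrna4 (ENSMUSG00000027577, chromosome 2, 181018380 to 181043546, minus strand) was measured at 43.4, 35.5, 39.0, 35.2 and 30.4 CPM in 3M single-end samples and at 33.02, 26.9, 23.6, 28.7 and 37.2 CPM at 24M. The groups overlapped, and the log2 fold change was -0.31 (SE 0.12, edgeR adjusted p = 0.12), with an edgeR adjusted p of 0.041 without 3M single-end replicate 5. The lowest sample, 24M replicate 3, was the single-end library with the highest share of reads outside annotated genes, 12.7%, and the highest sum of hippocampal markers. In the paired-end groups Chrna4 stood at 33.8, 32.3 and 32.1 CPM at 3M and at 31.0, 30.0 and 34.3 CPM at 29M, and the log2 fold change was -0.04 (SE 0.069, edgeR adjusted p = 0.82).

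Its partner Chrnb2 (ENSMUSG00000027950, chromosome 3, 89746195 to 89764632, minus strand) ranged from 75.9 to 92.3 CPM in 3M single-end samples and from 76.0 to 78.3 CPM at 24M. The paired-end samples ranged from 74.8 to 82.9 CPM at 3M and from 70.1 to 77.2 CPM at 29M. Chrnb2 had a log2 fold change of -0.11 at both ages (SE 0.055 and 0.056), with edgeR adjusted p-values of 0.22 and 0.34 and intervals of -0.23 to 0.01. Of the 8380 exon bases of Chrnb2, 1365 are shared with Adar on the other strand, and how the counting treated strand is not stated. For Adar, which edits adenosines in RNA, the log2 fold change was -0.20 at 24M (edgeR adjusted p = 0.045, above 0.05 in 9 of 11 fits without 1 library) and -0.01 at 29M, and reads of the 2 genes in the shared stretch cannot be told apart without strand.

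The accessory subunit Chrna5 (ENSMUSG00000035594, chromosome 9, 54980880 to 55007779, plus strand) stood at 5.46, 4.88, 7.35, 6.16 and 5.24 CPM in 3M single-end samples and at 6.39, 5.24, 5.98, 5.03 and 4.52 CPM at 24M. These groups overlapped, with a log2 fold change of -0.10 (SE 0.13, edgeR adjusted p = 0.69). In the paired-end libraries it stood at 6.62, 6.81 and 6.65 CPM at 3M and at 4.46, 6.28 and 5.09 CPM at 29M, so that all 29M samples lay below all 3M samples, as they did for 10.5% of all genes. Chrna5 at 29M had a log2 fold change of -0.35 (SE 0.15, 95% interval -0.68 to -0.03) with an edgeR adjusted p of 0.24, which does not pass the threshold. Chrna7 (ENSMUSG00000030525, chromosome 7, 63098692 to 63212569, minus strand), the alpha7 subunit, ranged from 25.3 to 39.8 CPM in 3M single-end samples and from 29.6 to 33.9 CPM at 24M. It ranged from 30.6 to 36.7 CPM and from 30.1 to 33.6 CPM in the paired-end groups. Its log2 fold changes were 0.04 (interval -0.19 to 0.26, edgeR adjusted p = 0.87) and -0.09 (interval -0.26 to 0.08, edgeR adjusted p = 0.62), and the sign at 24M turned without 3M single-end replicate 4 or 5 (-0.03 and -0.02).

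Ache (ENSMUSG00000023328, chromosome 5, 137287519 to 137294466, plus strand), which splits acetylcholine in the synaptic cleft, passed the test at neither age. It was measured at 57.3, 57.3, 56.1, 52.7 and 47.4 CPM in 3M single-end samples and at 51.4, 48.3, 45.5, 56.6 and 56.8 CPM at 24M. In paired-end samples it was measured at 49.6, 53.1 and 48.6 CPM at 3M and at 46.7, 51.2 and 55.5 CPM at 29M. In both library types the groups overlapped. Its log2 fold change was -0.07 (interval -0.23 to 0.09, edgeR adjusted p = 0.58) at 24M and 0.02 (interval -0.13 to 0.17, edgeR adjusted p = 0.92) at 29M. Offsets for GC content and length turned both signs, to 0.02 and -0.03.

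The effects at 29M and 24M were also set against each other in 1 model over the 4 groups. None of the 10 members passed an adjusted p of 0.05 (lowest edgeR adjusted p 0.605, for Chrna4), nor did any of 16055 genes (0 with edgeR), with 10.4% of genes at an unadjusted p under 0.05. For Chrm3 the 29M effect was 0.07 above the 24M effect on the log2 scale (edgeR adjusted p = 0.82). For Chrna4 it was 0.26 above (95% interval -0.10 to 0.63, edgeR adjusted p = 0.605). Age and library type vary together here, so a difference between the ages cannot be told apart from one between the library types.

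Beyond these 10 genes, 6 lists of the cholinergic system held 58 genes, of which 57 had a counted identifier. At 24M 49 of them were tested and at 29M 46, and 0 were called in either direction at either age. Their median log2 fold change was -0.09 at 24M and -0.05 at 29M, beside -0.0032 and -0.0021 over all genes. At 24M the adjusted p alone was at most 0.05 for 5 of the 49, 1 higher and 4 lower, beside 3.21% and 2.37% of all genes, and at 29M for 1 of the 46, which was lower, beside 0.662%. These 6 genes are named here after their values were seen.

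**Figure D5:**
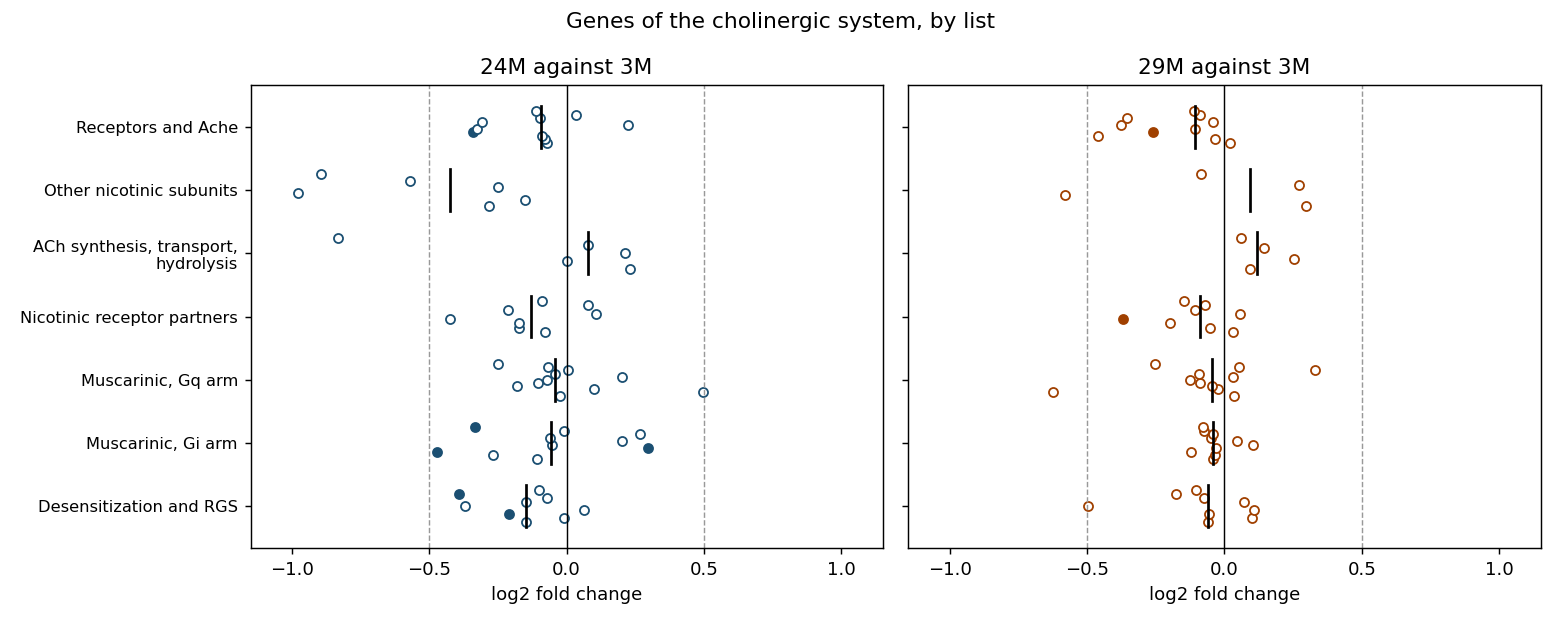
log2 fold change of every tested gene of the 10 receptor and Ache genes and of the 6 other lists, at 24M (left) and 29M (right) against 3M. Black bars are list medians, filled points have an adjusted p of at most 0.05 and dashed lines mark 0.5 in either direction. At 24M the filled genes beside Chrm3 are 4 lower genes and 1 higher gene of the Gi arm and the desensitization list, and at 29M 1 lower gene among the receptor partners.

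Acetylcholine is made by choline acetyltransferase (Chat) and loaded into vesicles by Slc18a3, while Slc5a7 takes choline back into the terminal. Chat had a mean of 0.218 CPM over the 16 samples and was at 0 in 7 of them, and Slc5a7 had a mean of 1.03 CPM. Slc18a3 was not analysed here. Bche, the second cholinesterase, had 9.24 ± 1.14 CPM in 3M single-end samples and 10.8 ± 1.10 at 24M, and 7.86 ± 1.24 and 8.39 ± 0.994 CPM in the paired-end groups. The choline transporters Slc44a1 and Slc44a2, with means of 128.8 and 40.9 CPM, were the most abundant of this list. Slc44a1 had log2 fold changes of 0.21 (edgeR adjusted p = 0.072) and 0.15 (edgeR adjusted p = 0.26). At 24M its edgeR adjusted p ran from 0.015 without 3M single-end replicate 5 to 0.15 in the fits without 1 library, and the value was 0.08 (edgeR adjusted p = 0.39) with offsets for GC content and length. With all 4 groups in 1 fit the edgeR adjusted p was 0.040. At 29M leaving out 3M paired-end replicate 1 gave 0.07, and leaving out 29M replicate 3 gave 0.10. None of the 5 genes tested at 24M and the 4 tested at 29M was called.

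The 12 other nicotinic subunits were scarce. The most abundant, Chrnb1, Chrna1 and Chrnb4, had means of 2.70, 1.98 and 1.84 CPM, and Chrnb4 reached 8.56 CPM in 3M single-end replicate 4 and at most 2.16 CPM elsewhere. That library also had the highest sum of the 7 medial habenula markers, 98.7 CPM against 52.6 to 84.8 CPM, a list that holds Chrnb4 itself and of which 4 genes had a mean of at least 1 CPM. Of that sum, 78.7 CPM were Nr4a2, which also stood at 76.8 and 74.4 CPM in 3M single-end replicates 3 and 1. Of these subunits 6 were tested at 24M, all below 0 with a median of -0.43, and 4 at 29M with a median of 0.09, and 0 passed an adjusted p of 0.05. The lowest values at 24M were those of Chrna3 (-0.98) and Chrnb4 (-0.89). Chrna3 was also highest in 3M single-end replicate 4, at 2.75 CPM against at most 1.18 CPM elsewhere. The part of that library in these values was not tested. The partner proteins that sit beside or help assemble nicotinic receptors were led by Lynx1, Ly6h and Ly6e, with means of 445.3, 181.5 and 178.7 CPM.

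Lypd1, a membrane-anchored relative of Lynx1 that binds nicotinic receptors, stood at 58.8, 55.6 and 61.1 CPM at 3M and at 37.6, 50.4 and 47.7 CPM at 29M. Its log2 fold change at 29M was -0.37 (SE 0.089, edgeR adjusted p = 0.041), but the edgeR adjusted p was 0.56 with all 4 groups in 1 fit and above 0.05 in 5 of the 6 fits without 1 library. At 24M it was -0.42 (SE 0.16, edgeR adjusted p = 0.12, and 0.027 without 3M single-end replicate 5). 3M single-end replicate 4 held 101.3 CPM of Lypd1, and without that library the value was -0.25 (edgeR adjusted p = 0.22). For Lynx1, which dampens nicotinic currents, all aged samples lay below all 3M samples at both ages. The same held for 3.42% of all genes at 24M and 10.5% at 29M. It ranged from 460.2 to 533.9 CPM at 3M and from 411.2 to 457.4 CPM at 24M, and from 417.8 to 472.4 CPM and 367.3 to 407.5 CPM in the paired-end groups. The log2 fold changes of -0.17 and -0.20 had edgeR adjusted p-values of 0.057 and 0.052, just outside the threshold, and passed without 3M single-end replicate 5 (0.021), 24M replicate 4 (0.047) or 3M paired-end replicate 3 (0.036).

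Downstream of the Gi-coupled receptors, 10 of 10 listed genes were tested at both ages, led by Adcy1, Gnao1 and Gnai1 with means of 1573, 726.3 and 229.4 CPM. Kcnj9, a GIRK channel subunit, was lower at 24M, at 88.3, 81.9, 76.0, 86.3 and 80.6 CPM against 111.9, 103.4, 108.6, 102.0 and 94.4 CPM at 3M. These groups did not overlap, with all 24M samples below all 3M samples, as for 3.42% of all genes. The log2 fold change was -0.33 (SE 0.058, edgeR adjusted p = 0.0089). At 29M it was -0.08 (edgeR adjusted p = 0.41). For Adcy8, a calcium-stimulated adenylyl cyclase, the log2 fold change was -0.47 at 24M (SE 0.11, edgeR adjusted p = 0.026) and -0.12 at 29M (edgeR adjusted p = 0.46). Gnai1, an inhibitory G protein alpha subunit, was higher at 24M by 0.30 on the log2 scale (SE 0.077, edgeR adjusted p = 0.041), with overlapping groups, and at -0.03 at 29M (edgeR adjusted p = 0.74). The difference between the ages did not pass for Kcnj9 and Gnai1 (edgeR adjusted p = 0.39 for each) or Adcy8 (0.47). The edgeR adjusted p of Gnai1 was above 0.05 in 8 of 11 fits without 1 library, and highest without 24M replicate 2 (0.12). That of Adcy8 was 0.061 when 3M single-end replicate 1 was left out and 0.072 when 24M replicate 2 was.

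Among the kinases, arrestins and RGS proteins that switch receptors off, 9 of 9 were tested, with Arrb1, Grk2 and Rgs4 the most abundant at means of 321.8, 217.3 and 195.2 CPM. Rgs4, which speeds the shut-off of Gq and Gi proteins, ranged from 211.1 to 303.7 CPM at 3M and from 182.6 to 197.8 CPM at 24M, and from 154.4 to 176.0 CPM and 145.4 to 150.9 CPM in the paired-end groups. All aged samples lay below all 3M samples at both ages. Of all genes, 3.42% showed such a separation at 24M, and 10.5% did so in the 29M comparison. Rgs4 had log2 fold changes of -0.39 (SE 0.083, edgeR adjusted p = 0.022) and -0.18 (SE 0.046, edgeR adjusted p = 0.062). Its highest value was that of 3M single-end replicate 4. Without 24M replicate 2 the edgeR adjusted p of Rgs4 at 24M was 0.064, and without 3M paired-end replicate 2 that at 29M was 0.012. Grk2, a kinase that marks active receptors for arrestin, had -0.21 at 24M (SE 0.055, edgeR adjusted p = 0.045; above 0.05 in 8 of 11 fits without 1 library) and -0.06 at 29M (edgeR adjusted p = 0.47). The summed neocortex markers given for Chrm3 were lower at 24M as well, and their part in these 24M differences was not tested. In the Gq arm, 11 of 11 genes were tested and 0 passed at either age, with medians of -0.04 and -0.05 and with Itpr1 and Gnaq among the most abundant at 688.0 and 358.2 CPM.

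Over the 16 samples, after the mean of each library type was subtracted from log2 CPM, the members varied in different company. The values are Pearson correlations that share libraries, depth and age, and are given as a description. The genes most like Chrm3 were Parp6 (r = 0.949) and Hsp90ab1 (0.929), and those most like Chrm1 were Sez6l (0.933) and Mpp2 (0.922). Chrnb2 was followed most closely by Ywhag (0.943) and Rtl6 (0.929), and Chrna7 by Kcng1 (0.945) and Crym (0.940). For Chrm2 the closest was Sp9 (0.891), a transcription factor at a mean of 7.29 CPM. Chrna4 was most like Atg9a (0.922) and Lrp3 (0.920), Chrm4 like 2410131K14Rik (0.915) and Mex3d (0.906), and Ache like Snx17 (0.895) and Keap1 (0.890). For Chrm5 they were Ssbp2 (0.897) and Rab3gap1 (0.863), and for Chrna5 Cox15 (0.857) and Armh4 (0.839). Among the members themselves the highest values were those of Chrm5 with Chrna7 (0.780), Chrm1 with Chrnb2 (0.757) and Chrna4 with Ache (0.722), and Chrna4 with its partner subunit Chrnb2 gave 0.654.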

How the data were processed

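PolyA RNA of the hippocampus was sequenced in 17 libraries. The authors aligned reads with STAR 2.3.0 to GRCm38.p2, counted them per gene with HTSeq in the mode that resolves overlaps by non-empty intersection, and deposited the counts without normalization; the annotation and strand setting are not given in the sources used here, and reads falling on overlapping genes may be split or lost. Lines naming no gene stayed out of library sizes (no feature 8.59% to 15.9%, ambiguous 1.01% to 1.42%). Of 38355 identifiers 36602 were named from GENCODE M21.

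Within each library type, aged and 3M samples were compared with edgeR 4.0.16 (glmQLFTest, TMM, filterByExpr) in R 4.3.3. Standard errors were taken as the size of the log2 fold change over the square root of F. On simulated counts with 200 genes changed, the steps were tested. Promoters come from RefSeq, and exon lengths and positions from GENCODE M21. The members and lists were chosen with earlier results of these data known. Named genes are all members, the genes of 6 other lists that were called or else the 3 most abundant per list with Chat, Slc5a7 and Bche, and the 2 genes most correlated with each member. The 6 list genes with an adjusted p of at most 0.05, Adar and the values of Lynx1 and Slc44a1 were chosen after their values were seen. The results of some single genes that this rule names are left out. Alternatives were DESeq2 1.42.0, its size factors, 2 filters, no fold threshold, GC and length offsets (loess, span 0.3), all groups in 1 fit, the replicate number as a block, the 24M pair kept apart or left out, and each library left out.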

Additional observations from a re-analysis of the deposited data

Results flagged for a closer look

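Of 52 groups checked for a sample far from the rest, 5 had one, where 2.6 are expected by chance. The striatum sum of 3M single-end replicate 4 had a gap to the nearest sample of 0.883 of the group's range, and the neocortex sum of the same library had 0.72. The hippocampus sum of 24M replicate 3, the sample with the lowest Chrna4, had 0.764. The blood sum of 24M replicate 2, the library without which Chrm3 at 24M did not pass an adjusted p of 0.05, had 0.829. The hypothalamus sum of 3M single-end replicate 2, 12.1 CPM against 2.82 to 4.52 CPM in the other 4 samples of its group, had 0.816. The limit for 5 samples is 0.71. None of the 10 members had such a sample in either group of 5.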

How the results depend on the processing

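No member was called under any alternative that kept the fold threshold, and without it 1 was called at each age, Chrm3. Members with an adjusted p of at most 0.05 at 24M numbered 2 with all 4 groups in 1 fit (Chrm3, Chrm4), 0 with the replicate block and 0 with the block and offsets, and 0 to 2 without 1 library. At 29M they numbered 0 under DESeq2, 2 without a filter (Chrm2, Chrm3), 0 with all 4 groups in 1 fit, 0 with the replicate block, 1 with the block and offsets (Chrm2 in place of Chrm3), and 0 to 0 without 1 library. The cause of these shifts was not tested. Same-numbered samples did not deviate together (correlations -0.137 to 0.053 at 24M, -0.069 to 0.097 at 29M), so the numbers were not taken as pairs. Under the block 83 genes were called at 24M and 225 at 29M, against 310 and 219. The block gave Chrm3 -0.29 at 24M (adjusted p = 0.119, and 0.0599 with offsets) and -0.26 at 29M (0.0616 and 0.0576), and Chrm4 at 24M -0.171 (-0.088 with offsets). At 24M under the block the adjusted p of Adcy8, Kcnj9, Rgs4, Gnai1 and Grk2 lay between 0.072 (Adcy8) and 0.241 (Grk2).

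The sign turned, with no value past the threshold, for the following. At 24M, Chrm2 gave -0.185 to 0.018 without 1 library (0.004 and 0.018 without 3M single-end replicate 4 or 5), Chrna5 -0.159 to 0.009 (0.009 without replicate 3), and Chrna7 -0.032 to 0.139 (-0.032 and -0.021 without replicate 4 or 5), -0.06 with offsets, -0.02 with the replicate block and -0.118 with both. Ache gave 0.022 with offsets at 24M, and at 29M -0.032 with offsets and with the block and offsets, and -0.046 to 0.082 without 1 library (-0.006 and -0.046 without 3M or 29M replicate 3). In the difference between ages, Chrm1 gave -0.052 with offsets and -0.005 without 3M single-end replicate 3 (to 0.076 without replicate 4), Ache -0.058 with offsets, and Chrnb2 0.014 with the replicate block and -0.054 to 0.029 without 1 library, above 0 in 8 of those fits.

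Called genes in all ranged from 83 to 875 at 24M (518 with all 4 groups in 1 fit, 122 with the block and offsets, 163 without the 24M pair, 875 without a fold threshold, 119 to 568 without 1 library). At 29M they ranged from 86 to 451 (441 without a filter, 86 with all 4 groups in 1 fit, 330 with the block and offsets, 451 without a fold threshold, 124 to 221 without 1 library). Depth limits Chrm5 and Chrna5 most.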
